A study of Mus musculus with 8 samples.

Results

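The cathepsins are the main proteases of the lysosome, and 10 of their genes were followed here in brown adipose tissue (BAT) of lean and obese mice: Ctsa, Ctsb, Ctsc, Ctsd, Ctsf, Ctsh, Ctsk, Ctsl, Ctss and Ctsz. They were taken by name, through the Ensembl identifiers, from a count table of 31053 genes, and all 10 were among the 9264 genes with enough counts to test. BAT of 8-week-old mice was profiled by bulk RNA-seq, with 4 wild-type (WT) libraries and 4 db/db libraries. The question was how the tissue transcriptome differs in db/db mice, which lack a working leptin receptor, overeat, and become obese and diabetic. The labels give the strain C57BL6/J, the tissue and the age of 8 weeks for both groups, so that genotype is the only labelled difference, and no agent was given. The study's methods state that the mice were male, were fed normal chow and were fasted before the tissue was taken, and that the db/db mice were purchased. The db mutation of Lepr is a germline allele and is not limited to fat. The methods and the resource list of the study do not name the same supplier for WT mice. For db/db the methods name the line B6.BKS(D)-Leprdb/J, whose background goes with the label. The catalogue number in the resource list, however, belongs to a line kept on another background than the label states. Supplier, possible background differences and genotype therefore cannot be told apart. The number of mice a group stated for this comparison equals the number of libraries, although no label ties a library to a mouse, and the p-values measure the spread between these libraries.

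In 8 of the 10 cathepsin genes the level was higher in db/db BAT, by 1.38-fold for Ctsb to 9.14-fold for Ctss, and no WT library of those 8 genes reached the lowest db/db library. Ctsf and Ctsz did not pass the test, and their groups overlapped. Of all genes tested, 27.7% passed the same test, 15.8% as higher and 11.9% as lower in db/db, and 28.1% had groups that did not overlap. The median log2 fold change of the 10 cathepsins was 1.02, beside 0.01 for all genes tested. No cathepsin was called lower by edgeR, where 0 were lower even at an unadjusted p under 0.05, and 0 were lower by DESeq2 or limma-voom. Skeletal muscle markers were also higher in db/db, and with their level as a covariate 3 of the 8 genes, Ctss, Ctsh and Ctsl, stayed past the threshold, while the calls among all genes fell from 2568 to 592. The other 5 kept their direction, with log2 fold changes of 0.35 (Ctsb) to 1.26 (Ctsk) in place of 0.46 to 1.91.

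Cathepsins are made as inactive precursors, carried to the lysosome largely by mannose 6-phosphate receptors and activated there by the acid pH. Ctsb, Ctsc, Ctsf, Ctsh, Ctsk, Ctsl, Ctss and Ctsz encode cysteine proteases of the papain family, Ctsd an aspartic protease and Ctsa a serine carboxypeptidase. Cathepsins B, D and L are found in nearly all cells, whereas cathepsin S is best known from macrophages, dendritic cells and B cells, and macrophages are known to collect in the fat of obese animals. In bulk tissue, more cells of a type and more RNA per cell cannot be told apart.

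Many lysosomal genes carry the letters CACGTG near their start, the core of the element bound by TFEB and its relatives, and GGAAGT is a form of the site of PU.1, a factor of myeloid cells. Promoters of 8 of the 10 genes were in the RefSeq table of the mouse genome (GRCm38.p6), which holds 250 bases before and 50 after each start, and those of Ctsb and Ctsh were not. The bases before the start are printed for 4 genes on their own strand, 5′ to 3′, with matches to CACGTG, to its longer form TCACGTG and to GGAAGT on either strand in capitals. Ctsd is shown because it holds 2 matches and was higher in db/db, Ctss because it changed most and holds no match before its start, and 100-base stretches of Ctsa (its downstream start) and Ctsf because both hold a match near the start while only Ctsa was higher.
Ctsd, chr7:142387828-142388077, minus strand: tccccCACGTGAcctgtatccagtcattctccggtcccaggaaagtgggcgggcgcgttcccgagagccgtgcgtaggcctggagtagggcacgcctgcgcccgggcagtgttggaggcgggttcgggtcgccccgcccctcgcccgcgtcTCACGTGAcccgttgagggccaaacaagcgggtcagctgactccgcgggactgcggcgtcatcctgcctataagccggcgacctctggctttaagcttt
Ctss, chr3:95526536-95526785, plus strand: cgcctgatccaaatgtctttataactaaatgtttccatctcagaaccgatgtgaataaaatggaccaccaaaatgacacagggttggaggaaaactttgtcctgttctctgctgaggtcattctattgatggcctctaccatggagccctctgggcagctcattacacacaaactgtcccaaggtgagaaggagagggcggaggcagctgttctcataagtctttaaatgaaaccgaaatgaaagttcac
Ctsa, chr2:164833673-164833772, plus strand: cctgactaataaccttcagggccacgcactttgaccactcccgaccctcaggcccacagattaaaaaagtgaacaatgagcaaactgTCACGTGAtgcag
Ctsf, chr19:4855065-4855164, plus strand: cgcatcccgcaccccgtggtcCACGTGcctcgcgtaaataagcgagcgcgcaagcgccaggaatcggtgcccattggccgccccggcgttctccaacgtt
The matches to CACGTG began at positions -245 and -98 in Ctsd, -12 and 5 in Ctsa, and -79 in Ctsf, counted from 0 at the annotated start. Ctsl held a further match at -236, so 4 of the 8 genes had the hexamer in the window, as had 7.15% of 32851 RefSeq promoters. Members were counted by gene, with a match in any of its promoters, whereas the percentages count single promoters. The windows follow RefSeq starts. By the gene spans printed below, the match in Ctsl, that at -98 in Ctsd and those in Ctsa lie inside the gene, not before it. TCACGTG was present in Ctsa and Ctsd and in 3.77% of all promoters, and GGAAGT in Ctsa, Ctsc, Ctsk and Ctss and in 23.8% of all promoters. In Ctss the GGAAGT match, on the other strand, lay across the start at position -2. The genes with CACGTG thus included Ctsa, Ctsd and Ctsl, which were higher in db/db, and Ctsf, which did not pass the test. Those without it divided alike, with Ctsc, Ctsk and Ctss higher and Ctsz not passing. The promoters also differed in base composition, with 67.2% G and C and 27 CG pairs in the 250 bases of Ctsd, against 44.8% and 4 in Ctss, 43.2% and 0 in Ctsk, and medians of 52.4% and 6 in all promoters. A match is a run of letters and says nothing of binding in these samples.

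The libraries held 2374079 to 3240074 counts, so that 3 counts corresponded to 0.902 to 1.33 counts per 1000000 (CPM, scaled with TMM factors), the level below which a gene was read as at the floor. Mitochondrially encoded genes took 31.9% to 34.0% of counts in WT and 30.7% to 37.6% in db/db. The labels name the stromal vascular fraction as the cell type, a fraction without mature adipocytes, but adipocyte genes were abundant in every library: Ucp1 had 1892 to 2754 CPM in WT and 1056 to 2027 CPM in db/db, and Adipoq had at least 1245 CPM in all 8 libraries. The libraries are therefore called BAT. All 14 skeletal muscle markers examined were higher in db/db, with a summed level of 447 to 1609 CPM in WT and 2338 to 11698 CPM in db/db, the highest in db/db replicate 1. The 10 cathepsins together took 0.181% ± 0.00604 of all counts in WT and 0.275% ± 0.0506 in db/db (mean ± SD, n = 4, exact two-sided permutation p = 0.0286, the smallest that 4 against 4 allows).

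**Figure D1:**
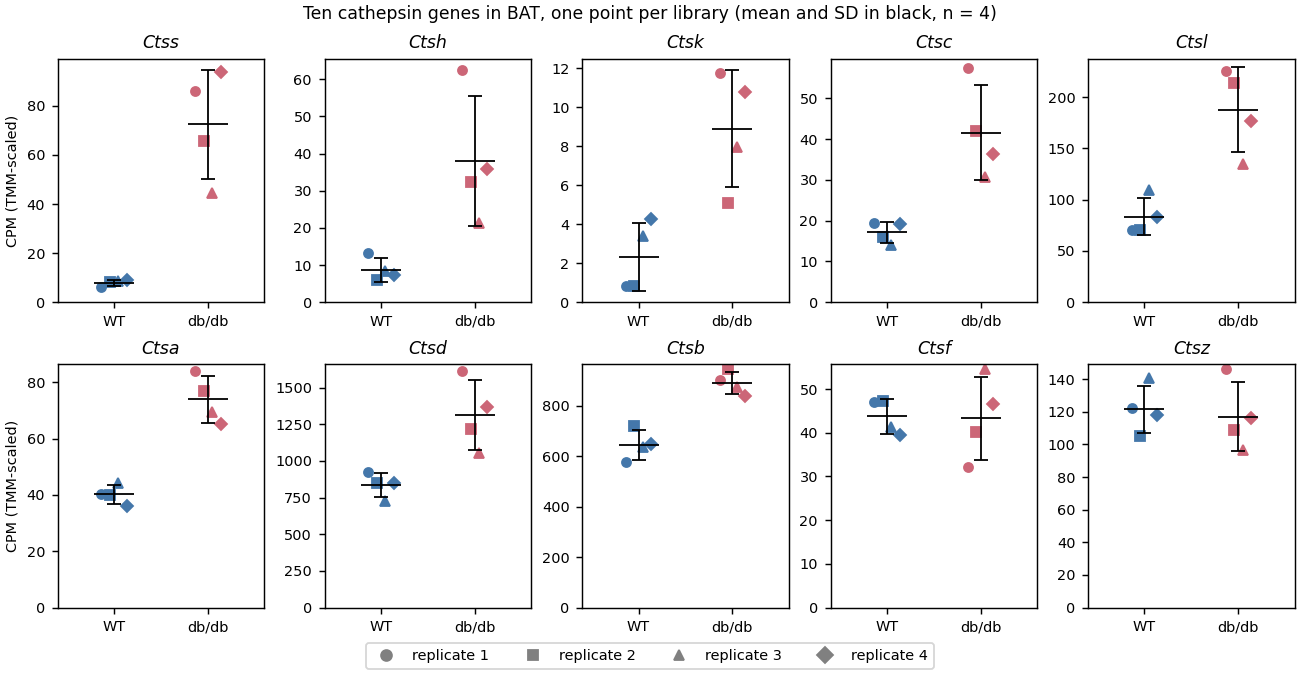
Level of each of the 10 cathepsin genes in CPM (vertical axes from 0) in the 4 WT and 4 db/db libraries, with the mean and SD in black and the replicate number as the marker shape. The 4 db/db libraries lie above all WT libraries in 8 genes (Ctss 44.3 to 93.7 CPM against 6.07 to 8.91 CPM), and the groups overlap in Ctsf and Ctsz.

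Cathepsin S (Ctss, ENSMUSG00000038642, mm10 chr3:95526786-95556403), which trims the invariant chain from MHC class II molecules and keeps its activity at neutral pH, showed the largest difference among the cathepsins. Its level was 6.07, 8.02, 8.64 and 8.91 CPM in WT replicates 1 to 4, from 15, 19, 23 and 21 counts. In db/db it was 86.0, 65.9, 44.3 and 93.7 CPM, from 286, 207, 100 and 252 counts. Every db/db library was thus well above every WT library, with replicate 3 the lowest and replicate 4 the highest of db/db. The means were 7.91 ± 1.28 and 72.5 ± 22.2 CPM, a log2 fold change of 3.19 (SE 0.25, adjusted p = 6.56e-08 in the quasi-likelihood test of edgeR). Ctss ranked 93 of 9264 genes by fold change, counted from the largest rise. It made up 0.439% ± 0.0767 of the counts of the 10 cathepsins in WT and 2.57% ± 0.628 in db/db (exact permutation p = 0.0286, n = 4 a group).

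Its neighbour on chromosome 3, cathepsin K (Ctsk, ENSMUSG00000028111, chr3:95499256-95509362), ends 17423 bases before Ctss begins, with 0 annotated genes between them. Cathepsin K is the collagen-cleaving protease of osteoclasts and is also made by fibroblasts and fat cell precursors. It was near the floor in WT, with 2, 2, 9 and 10 counts or 0.809, 0.844, 3.38 and 4.24 CPM. In db/db it had 39, 16, 18 and 29 counts or 11.7, 5.09, 7.98 and 10.8 CPM. The lowest db/db library, replicate 2, was just above the highest WT library. The log2 fold change was 1.91 (SE 0.48, adjusted p = 0.00616 in edgeR), the widest error of the 10 genes.

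Cathepsins H and C are an aminopeptidase and a dipeptidyl peptidase, the latter known for activating the granule proteases of neutrophils, mast cells and cytotoxic lymphocytes. Ctsh (ENSMUSG00000032359, chr9:90054152-90076089) had 13.4, 5.91, 8.27 and 7.22 CPM in WT and 62.6, 32.5, 21.3 and 35.7 CPM in db/db. The groups did not overlap, although replicate 1 stood highest in both. The means were 8.69 ± 3.26 and 38.0 ± 17.5 CPM and the log2 fold change 2.13 (SE 0.32, adjusted p = 7.67e-05 in edgeR). Ctsc (ENSMUSG00000030560, chr7:88278085-88310888) had 19.4, 16.0, 13.9 and 19.1 CPM in WT and 57.5, 41.99, 30.6 and 36.5 CPM in db/db. Here too the lowest db/db library exceeded the highest WT library. The log2 fold change of Ctsc was 1.29 (SE 0.22, adjusted p = 2.23e-04 in edgeR), from 17.1 ± 2.63 to 41.6 ± 11.5 CPM.

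The widely expressed endoproteases L, B and D were higher as well, with log2 fold changes of 0.46 to 1.17. Ctsl (ENSMUSG00000021477, chr13:64359337-64370890, minus strand) had 70.4, 70.5, 109 and 83.2 CPM in WT and 226, 214, 135 and 177 CPM in db/db. WT replicate 3 and db/db replicate 3 came closest to each other without touching. Its log2 fold change was 1.17 (SE 0.18, adjusted p = 9.86e-05 in edgeR). Ctsd (ENSMUSG00000007891, chr7:142375911-142388038, minus strand), the main aspartic protease of lysosomes, had 925, 847, 728 and 848 CPM in WT and 1614, 1220, 1054 and 1366 CPM in db/db. The mean rose from 837 ± 81.4 to 1314 ± 238 CPM, a log2 fold change of 0.65 (SE 0.15, adjusted p = 0.00286 in edgeR). Ctsb (ENSMUSG00000021939, chr14:63122462-63145923), which cuts both inside chains and from their carboxy end, had 577, 720, 634 and 649 CPM in WT and 900, 945, 875 and 838 CPM in db/db. The db/db libraries were close to each other, and the change was the smallest of those that passed, with means of 645 ± 58.8 and 889 ± 44.8 CPM and a log2 fold change of 0.46 (SE 0.12, adjusted p = 0.00965 in edgeR).

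Cathepsin A (Ctsa, ENSMUSG00000017760, chr2:164832873-164841032) is also called protective protein, because it holds β-galactosidase and neuraminidase in a stable complex. Its level was 40.5, 40.1, 44.3 and 36.1 CPM in WT and 83.9, 77.0, 69.6 and 65.1 CPM in db/db. The WT libraries differed little, and all db/db libraries stood clear of them. The means were 40.2 ± 3.38 and 73.9 ± 8.29 CPM, and the log2 fold change was 0.88 (SE 0.15, adjusted p = 2.41e-04 in edgeR). Of its partners in the complex, Glb1 (8.11 ± 3.35 and 9.87 ± 3.26 CPM, adjusted p = 0.585 in edgeR) and Neu1 (19.0 ± 3.501 and 21.3 ± 2.25 CPM, adjusted p = 0.608 in edgeR) did not pass the test.

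Cathepsins F and Z gave no call in either direction. Ctsf (ENSMUSG00000083282, chr19:4855130-4860918), a cysteine protease that can also process the invariant chain, had 46.9, 47.3, 41.3 and 39.5 CPM in WT and 32.2, 40.1, 54.5 and 46.5 CPM in db/db. Its db/db libraries lay on both sides of the WT range, and replicate 3 stood above replicate 1, the reverse of their order in the other 9 cathepsins. The log2 fold change was −0.02, with a 95% interval of −0.37 to 0.32 (SE 0.18, adjusted p = 0.942 in edgeR). Ctsz (ENSMUSG00000016256, chr2:174427493-174439039, minus strand), a carboxypeptidase, had 122, 105, 141 and 118 CPM in WT and 147, 109, 96.6 and 116 CPM in db/db. Its log2 fold change was −0.05 with a 95% interval of −0.34 to 0.24 (SE 0.15, adjusted p = 0.839 in edgeR).

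Within db/db, replicate 1 was the highest for 7 of the 10 cathepsins, the exceptions being Ctsb, Ctsf and Ctss, and for 28.9% of all genes tested. Replicate 3 was the lowest for 6 of the 10 and for 24.6% of all genes tested. The cathepsins share their libraries, and these counts were not tested. In WT no library was the highest for more than 3 genes. The spread in db/db, as the SD in percent of the mean, ran from 5.04% for Ctsb to 46.1% for Ctsh. Replicate 1 also had the highest summed level in db/db of every cell type marker list except those of neutrophils, dendritic cells and brown adipocytes, and the lowest of dendritic cells and brown adipocytes. The part of these in the order of the libraries was not tested. Leaving out any library, db/db replicate 1 included, left 8 cathepsins higher and 0 lower in db/db.

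Overlapping genes limit some of these values, since it is not given in the sources used here whether the counting used strand. Exons of Ctsa share 324 bases with Neurl2, which had too few counts to test, and 495 bases with Pltp, both on the opposite strand, and Pltp was itself higher in db/db (log2 fold change 2.19, adjusted p = 1.97e-06 in edgeR). Exons of Ctsb share 774 bases with Fdft1 on the opposite strand, which was lower (log2 fold change −1.54, adjusted p = 3.62e-06 in edgeR). Ctsz shares 10 exonic bases with Nelfcd (log2 fold change −0.36, adjusted p = 0.202 in edgeR), and Gm47123, on the opposite strand of Ctsl, was listed at 0 counts. Gm49369 shares 808 exonic bases with Ctsd on the same strand, where strand would not separate the reads, and was listed at 0 counts too. Ctsl also shares 395 exonic bases with Gm49230, a processed pseudogene on the same strand that was not analysed here. The values of Ctsa, Ctsb, Ctsd and Ctsl are uncertain to that extent, whereas Ctsf, Ctsh and Ctsk overlap no other annotated gene and Ctsc and Ctss share no exonic base with one.

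The ratio of Ctss to each of the other cathepsins was then taken within each library. Scaling cancels in such a ratio, except in the prior count added to each value. The ratio sets the protease of antigen-presenting cells against the others, of which some are widely expressed. It was higher in db/db against all 9 others, and for 8 of them no db/db library overlapped the WT libraries. Ctss had the largest log2 fold change of the cathepsins, so this direction follows from the values above. The 9 ratios share Ctss, and their p-values are not independent. Against Ctsb the log2 ratio was −6.40, −6.36, −6.08 and −6.07 in WT and −3.38, −3.83, −4.28 and −3.15 in db/db. Against Ctsd it was −7.08, −6.59, −6.28 and −6.46 in WT and −4.22, −4.20, −4.55 and −3.85 in db/db. The difference between the groups was 2.57 for Ctsb and 2.40 for Ctsd on the log2 scale, or 5.94-fold and 5.27-fold.
The difference was largest against Ctsz (3.10) and Ctsf (3.07), at 2.17 against Ctsa, at 1.88 against Ctsl and at 1.82 against Ctsc. It was smallest against Ctsk (1.25) and Ctsh (1.04). The exact two-sided permutation p was 0.0286, the smallest possible, for 8 of the 9 ratios, with an adjusted p of 0.0321 over the 9 (Benjamini-Hochberg). Against Ctsk the groups overlapped and the exact p was 0.0571, because the ratio of WT replicate 2 (2.46) exceeded that of db/db replicate 3 (2.37). With a prior count of 0.5 the difference was 1.01 and the exact p 0.171, and Ctsk stood below Ctsh (1.06). WT replicate 1 (2.65) then exceeded db/db replicate 3 (2.45) too, and WT replicate 2 (2.99) exceeded db/db replicate 1 (2.85) as well. Against Ctsh the WT maximum (0.40) lay just below the db/db minimum (0.45), and with 1 library left out the exact p was 0.0571 in 6 of 8 cases. The groups stayed apart in those cases too, and the exact p of the ratios to the 7 cathepsins other than Ctsh and Ctsk was 0.0286 under every omission.

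**Figure D2:**
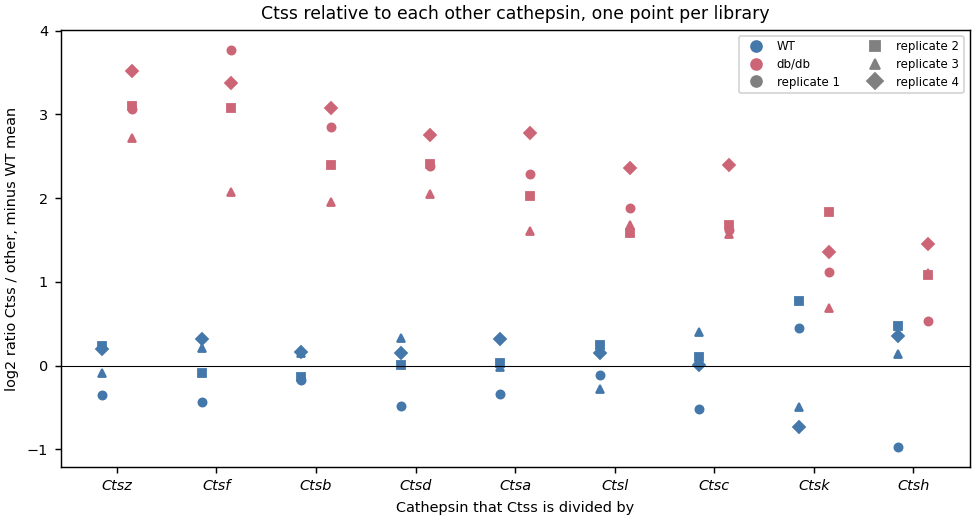
Log2 ratio of Ctss to each of the 9 other cathepsins in each library, minus the WT mean of that ratio (vertical axis, log2 scale), with blue for WT, red for db/db and the marker shape for the replicate. The mean of the db/db libraries is 3.10 above that of WT for Ctsz and 1.04 for Ctsh, and the groups overlap for Ctsk alone.

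Genes whose profile over the 8 libraries was nearest to that of Ctss, each taken relative to its own WT mean, were Lyz2, Retnla, Olfm1, Cdr2 and Laptm5, with root mean square differences of 0.294, 0.306, 0.335, 0.379 and 0.383 on the log2 scale among 6690 genes of at least 10 CPM. Lyz2 and Laptm5, both macrophage markers, had log2 fold changes of 2.79 and 2.85. The genes nearest to Ctsb were Atp6v1a, a subunit of the proton pump that acidifies lysosomes, Rgs5, Agpat5, Cd164 and Kif5b, at 0.0575, 0.0892, 0.0952, 0.0997 and 0.102. Their log2 fold changes ran from 0.44 for Kif5b to 0.53 for Agpat5, near the 0.46 of Ctsb. The nearest genes were chosen from these same values, so their likeness is a description.

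The remaining cathepsin genes were scarcely detected. Of 13 others, 10 had 0 counts in all libraries, as had 14643 of all 31053 genes in the count table. Among these 10 was Ctsg, the neutrophil and mast cell granule protease. Ctso was the only gene tested, with 4.64 ± 1.61 CPM in WT and 7.66 ± 3.54 CPM in db/db (log2 fold change 0.74, SE 0.41, adjusted p = 0.194 in edgeR). Ctsw, the cathepsin of cytotoxic lymphocytes, had 3, 2, 6 and 2 counts in WT and 0, 0, 1 and 1 in db/db, too few to test. Ctse had 3 and 1 counts in db/db replicates 1 and 3 and 0 in the other 6 libraries.

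Of 22 genes for inhibitors of cysteine proteases, 4 were tested, of which 1 was higher and 1 lower, against 15.8% and 11.9% of all genes. Cystatin B (Cstb), the inhibitor in the cytosol, had 50.2, 71.3, 85.3 and 67.9 CPM in WT and 114, 137, 84.7 and 96.7 CPM in db/db, a log2 fold change of 0.66 (SE 0.18, adjusted p = 0.00991 in edgeR) although db/db replicate 3 lay inside the WT range. Cystatin C (Cst3), the secreted inhibitor, was 972 ± 135 CPM in WT and 1049 ± 156 CPM in db/db (log2 fold change 0.11, adjusted p = 0.628 in edgeR). Kng2, a kininogen with cystatin domains, was lower (log2 fold change −0.76, SE 0.24, adjusted p = 0.0261 in edgeR), and Ctla2a, which resembles a cathepsin propeptide, did not pass (0.45, adjusted p = 0.0685 in edgeR). Cystatin F (Cst7), the inhibitor of lysosomes in immune cells, had 0 counts in all WT libraries and 11, 0, 0 and 1 in db/db, so that a single library carried it. The 4 tested inhibitors had a median log2 fold change of 0.28, with calls in both directions.

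All 14 genes of cathepsin processing and sorting were tested, and 2 of them were higher, a share close to the 15.8% of all genes. Legumain (Lgmn), the protease that cuts cathepsins into their chains, had 3.24, 11.4, 9.02 and 1.70 CPM in WT and 18.0, 32.8, 15.5 and 11.9 CPM in db/db (log2 fold change 1.62, SE 0.43, adjusted p = 0.00851 in edgeR). Prosaposin (Psap), the precursor of the lipid-presenting saposins, which also binds procathepsin D, rose from 529 ± 121 to 914 ± 79.1 CPM (log2 fold change 0.79, SE 0.16, adjusted p = 0.00129 in edgeR). The receptors and adaptors that carry enzymes to the lysosome gave no call. The mannose 6-phosphate receptors M6pr and Igf2r had log2 fold changes of 0.19 and 0.18 (adjusted p = 0.56 and 0.566 in edgeR), sortilin (Sort1) −0.09 (0.681), and the median of the 14 genes was 0.22.

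Of the 5 tested regulators of lysosomal or myeloid genes, 1 was higher and 1 lower, too few to set apart from the 15.8% and 11.9% of all genes. Spi1, which encodes PU.1, had 7.28, 1.27, 4.88 and 2.55 CPM in WT and 29.2, 12.1, 15.1 and 18.2 CPM in db/db (log2 fold change 2.20, SE 0.40, adjusted p = 4.91e-04 in edgeR). Zkscan3, a repressor of lysosomal genes, was lower, from 31.4 ± 1.89 to 16.5 ± 2.76 CPM (log2 fold change −0.92, SE 0.19, adjusted p = 0.00136 in edgeR). Mitf missed the threshold narrowly (log2 fold change 0.73, SE 0.27, adjusted p = 0.0502 in edgeR) without overlap between the groups. Tfeb (−0.06, SE 0.32) and Tfe3 (−0.26, SE 0.20), activators of lysosomal genes, had edgeR adjusted p-values of 0.91 and 0.375.

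The other lysosomal hydrolases and their maturation factors moved less than the cathepsins. Of 32 tested among 37, 10 were higher in db/db and 22 did not pass, with a median log2 fold change of 0.37. With the skeletal muscle covariate, the related lists from the inhibitors to antigen presentation gave 4 calls in all instead of 21. The smallest adjusted p-values belonged to Ppt1, which removes fatty acids from proteins (log2 fold change 1.12, adjusted p = 5.35e-05 in edgeR), Gusb, the β-glucuronidase (1.35, 1.19e-04), Sumf1, which activates sulfatases (1.22, 2.48e-04), and Sgsh, a heparan sulfatase (1.40, 2.50e-04). Exons of Ppt1 and Sgsh overlap those of other genes on the opposite strand. Against 10 of 32 hydrolases and 15.8% of all genes, 8 of 10 cathepsins were higher. No test of that difference was made.

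**Figure D3:**
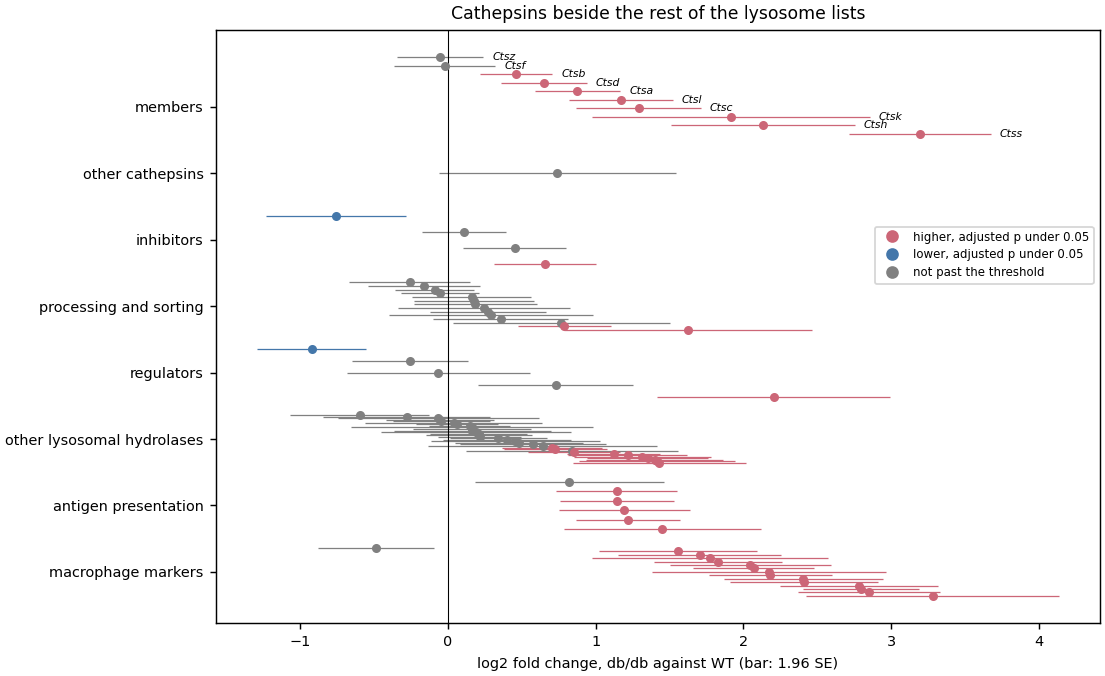
Log2 fold change of db/db against WT (horizontal axis) for every tested gene of the cathepsins, 6 related lists and the macrophage markers, with bars of the 95% interval and colour for the edgeR call at an adjusted p under 0.05. The cathepsins run from −0.05 (Ctsz) to 3.19 (Ctss), the hydrolases centre on a median of 0.37 and the macrophage markers on 2.17.

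Genes of 2 processes in which cathepsins take part rose as well. Of 6 tested genes of MHC class II antigen presentation, where Ctss cuts the invariant chain, 5 were higher, with a median log2 fold change of 1.17. H2-Aa rose from 93.4 ± 13.9 to 217 ± 62.4 CPM (log2 fold change 1.22, adjusted p = 6.89e-05 in edgeR), H2-Eb1 had a log2 fold change of 1.14 and H2-Ab1 of 1.19. These are smaller than the 3.19 of Ctss. Of 5 tested collagen, elastin and fibronectin genes, which encode matrix proteins that cathepsins K, L and S can cut, all 5 were higher, with a median of 1.80. Col1a1 and Col3a1 among them are also fibroblast markers, and all 5 fibroblast markers were higher, a movement whose part was not tested. Col3a1 rose from 94.3 ± 11.8 to 392 ± 153 CPM (log2 fold change 2.06, adjusted p = 3.48e-06 in edgeR).

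Macrophage markers were mostly higher in db/db as well. Of 16 listed, 15 were tested and 14 were higher, with a median log2 fold change of 2.17, and none of the 16 was at 0 counts throughout. Their summed level was 216 to 269 CPM in WT and 889 to 1568 CPM in db/db. Tyrobp, an adaptor of myeloid receptors, rose by a log2 fold change of 2.78 and C1qc by 2.18, whereas Mertk (26.4 ± 3.54 and 19.0 ± 3.16 CPM, adjusted p = 0.0816 in edgeR) and the pan-leukocyte gene Ptprc (log2 fold change 1.16, adjusted p = 0.0625 in edgeR) did not pass. Of 8 tested lipid-associated macrophage genes 6 were higher, including Gpnmb (4.24 to 10.1 CPM in WT, 56.3 to 90.6 CPM in db/db) and Lgals3 (log2 fold change 4.54). Acp5 (log2 fold change −0.04, adjusted p = 0.877 in edgeR) and Fabp5 (0.68, adjusted p = 0.0691 in edgeR) did not pass. The part of cell numbers in the cathepsin differences was not tested.

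Ctss was also taken relative to each of the 16 macrophage markers and Ptprc within a library. The log2 ratio of Ctss to Tyrobp, Lyz2, Mpeg1 and Laptm5 differed between db/db and WT by 0.29, 0.31, 0.33 and 0.35, the smallest of the 17 differences. Mpeg1 had only 4, 4, 1 and 2 counts in WT, so its ratio depends on the prior count. Its own log2 fold change in edgeR was 3.28, beside 3.19 for Ctss. The ratio of Ctss differed by 0.77 against Cd68, 0.84 against Adgre1, 1.43 against Mrc1, 1.88 against Ptprc and, the most, by 3.50 against Mertk, the tested macrophage marker that did not pass. The differences against the other 9 cathepsins ran from 1.04 to 3.10. Those against the markers other than Mertk ran from 0.29 to 1.99, the last against Fcgr1, which had too few counts to test. The differences against Ctsa, Ctsb, Ctsd, Ctsf and Ctsz lay above that range, and those against Ctsc, Ctsh, Ctsk and Ctsl within it. The WT and db/db ranges of the ratio overlapped for 8 of the 17 markers: Tyrobp (−0.36 to 0.95 in WT, 0.23 to 0.84 in db/db), Lyz2, Mpeg1, Laptm5, C1qb, C1qc, Adgre1 (0.25 to 2.46 and 1.75 to 2.70) and Ptprc, the last by the closest margin. They did not overlap for the other 9.

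**Figure D4:**
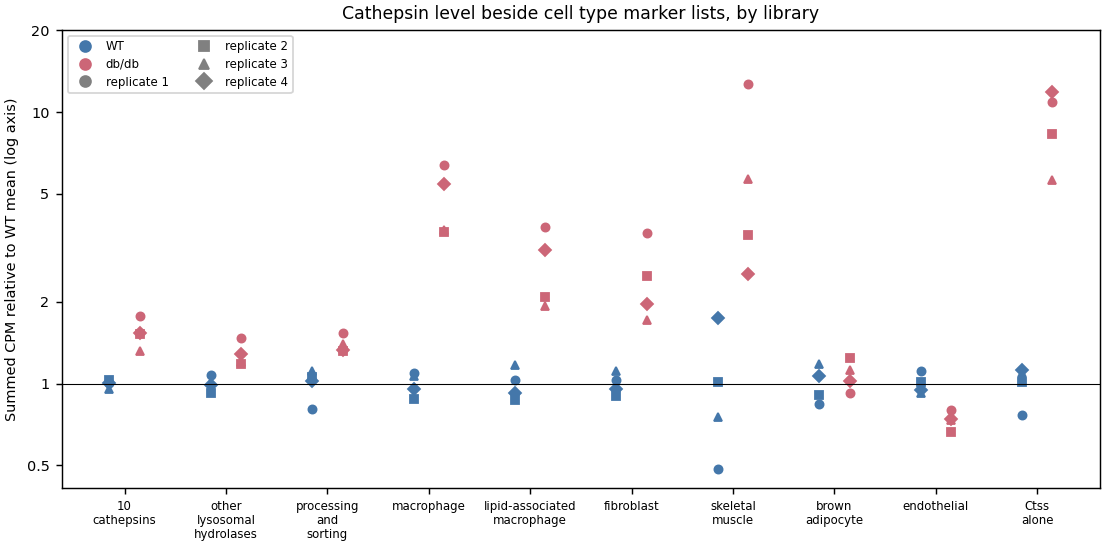
Summed CPM of the 10 cathepsins, of related gene lists and of cell type marker lists in each library, divided by the WT mean of that list (vertical axis, log scale), with Ctss alone at the right. The db/db libraries stand above WT for the cathepsins, macrophage and fibroblast lists, are spread widest, of the lists plotted, for skeletal muscle (2338 to 11698 CPM) and lie below WT for the endothelial list.

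Other cell types were covered unevenly. All 5 fibroblast markers were higher, with a summed level of 475 to 587 CPM in WT and 903 to 1889 CPM in db/db, and of 5 endothelial markers 1, Kdr, was lower. Of 7 tested brown adipocyte genes 4 were lower and 2 higher. S100a8 was the only neutrophil gene that passed of 2 tested (log2 fold change 2.72, adjusted p = 2.01e-04 in edgeR), no lymphocyte marker had enough counts to test, and Zbtb46 (dendritic cells) and Kit (mast cells), the only genes tested of their lists, did not pass. The summed level of the 4 mast cell markers was nonetheless 7.14 to 9.34 CPM in WT and 12.9 to 32.2 CPM in db/db. Of these, Cma1 had 1, 5, 2 and 6 counts in WT and 40, 9, 8 and 7 in db/db, too few to test. Skeletal muscle was a further source of variation: with the mean log2 level of its 14 markers as a covariate, an alternative added after the data were seen, 3 cathepsins were called higher instead of 8. These were Ctss (log2 fold change 3.17, adjusted p = 1.33e-05 in edgeR), Ctsh (1.79, 0.0354) and Ctsl (1.02, 0.0414), while Ctsa (0.77, 0.104), Ctsc (0.91, 0.153), Ctsd (0.54, 0.247), Ctsk (1.26, 0.381) and Ctsb (0.35, 0.446) kept their sign and missed the threshold. Since the muscle level did not overlap between the groups, its part and that of genotype cannot be told apart in these libraries.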

How the data were processed

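Total RNA of 8 BAT libraries was sequenced by the study as single-end reads of NEGEDIA Digital mRNA-seq libraries. The authors deposited raw counts per Ensembl gene and a log2 table of normalized values. According to the study's methods, reads were trimmed with bbduk, aligned to mm10 with STAR and counted with HTSeq-count, whereas the submitters' processing notes name Trimmomatic, HISAT2 and DESeq2 with GRCm38. The strand setting and any collapsing of molecular identifiers are not given in the sources used here, nor is whether counts scale with transcript length. Ratios, shares and sums over different genes may depend on length and were therefore read only as differences between libraries or groups. The deposited log2 values equal log2 of the counts divided by DESeq2 size factors, plus 1 (100% of values with at least 20 counts within 0.1%), and were used for this check alone.

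Identifiers were given symbols from GENCODE M21, which matched 31011 of 31053, and 42 without a match took at most 0.00213% of a library. Counts were tested with edgeR 4.0.16 (R 4.3.3, filterByExpr with a minimum count of 10 and total of 15, TMM factors, quasi-likelihood F test on genotype, Benjamini-Hochberg over 9264 genes at 0.05). CPM are counts per 1000000 counts of the filtered genes, corrected by the TMM factor. A 95% interval comes from the SE and the normal distribution. For ratios, 2 was the prior count of log2 CPM, and exact two-sided permutation tests were run. Procedures were tested on simulated data. Intervals from the SE include the spread between libraries, whereas floors cover counting error only. Alternatives were DESeq2 1.42.0, limma-voom 3.58.1, other scaling factors and filters, a replicate block, and leaving out each library.

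All 10 members were named with values in every library. From the lists of inhibitors, sorting genes, regulators and other cathepsins any tested gene could be named, and from the other lists at most the 4 with the smallest adjusted p and any that went against the majority of calls. The 5 genes nearest to Ctss and to Ctsb were named by the root mean square difference of profiles. Genes named outside this rule, including Pltp, Fdft1, Nelfcd, Ctse, Ctsw, Cst7, Cma1, Ucp1, Adipoq, Ptprc, Acp5, Fabp5 and the markers in ratios to Ctss, were chosen after their values were seen. The members, lists and tests were chosen with earlier results of these data known. Csta2, Csta3 and Ifi30 were not analysed here.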

Additional observations from a re-analysis of the deposited data

Results flagged for a closer look

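The log2 ratio of Ctss to Ctsc in db/db replicate 4 was 1.34, while the other 3 db/db libraries lay between 0.52 and 0.64, so that this library stood farther from its group than Dixon's 95% limit for 4 samples allows. Ctss was highest in that library (93.7 CPM), and Ctsc was the third highest of the 4 (36.5 CPM). All 4 exceeded every WT library. Of 38 groups of 4 libraries examined in this way 1 passed the limit, and chance gives about 1.9.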

How the results depend on the processing

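The 8 higher and 0 lower cathepsins were found again with DESeq2, limma-voom, 3 other scalings, without mitochondrially encoded genes and with all genes that had a count. With at least 10 counts in every library 7 of 9 tested were higher, since Ctsk was not tested. For the 8 genes that passed, direction and call stayed as reported in 71 of 71 values from these alternatives and the replicate block, and in 64 of 64 with 1 library left out. Ctsf and Ctsz passed in none of them, and their signs, near 0, varied. With the skeletal muscle covariate, chosen after seeing the data, 3 cathepsins instead of 8 and 4 genes of the related lists instead of 21 were called. The lists gave 20 to 22 calls with 1 library left out.

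Of 72 ratios with 1 library left out, 65 kept their call. The difference for Ctss to Ctsh ran from 0.72 to 1.22 and missed the threshold in 6 of 8 cases. That for Ctss to Ctsk ran from 1.004 to 1.51 and passed in 1, without WT replicate 2 (exact p = 0.0286).

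Same-numbered libraries did not deviate together (correlations of deviations 0.038, 0.049, −0.078 and −0.014 across genes), so the numbers were not read as pairs. A fit with the replicate number as a block called 8 cathepsins higher, 22 list genes and 2557 genes in all, and changed no call of a cathepsin. The smallest p that 4 pairs allow for a ratio is 0.125. At 2374079 to 3240074 counts a library Ctse and Ctsw lie near the floor, as does Ctsk in WT replicates 1 and 2, and small differences at that level were not detectable.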
